A study of Homo sapiens with 18 samples.

Results

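The 34 genes described here encode enzymes that build, interconvert and salvage purine and pyrimidine nucleotides and the deoxynucleotides of DNA. They form a list of 34 symbols by function, found by matching the Ensembl identifiers of the deposited count matrix; no threshold on a measured value chose them, but earlier results of these data were known when the list was made. All 34 were among the 57448 genes of the matrix, and all 34 were among the 15587 genes tested, which had at least 1 CPM (count per 1000000 counted reads) in at least 3 of the 18 libraries. Counts of single members ranged from 173 for NME2 to 20573 for RRM2 in a library. RNA was sequenced from MDA-MB-231 cells, a mesenchymal triple negative breast cancer cell line, in 6 groups of 3 replicates. WT was the unmodified, untreated parental line. KO1 and KO2 were untreated GPS2 knockout cells made by lentiviral Cas9 with a different sgRNA set each, selected with puromycin and kept as mixed pools rather than clones; KO below means both pools together. The parental cells received no virus or puromycin as far as the sources state. The myrAKT group was untreated cells carrying a retroviral, myristoylated and therefore membrane-bound AKT, the kinase downstream of PI3K. KO1_MK and KO2_MK were the same knockout pools given 10 µM of MK2206, an allosteric AKT inhibitor, for 4 h before harvest. Parental and myrAKT cells were not treated with MK2206, and the labels name no vehicle for the untreated pools.

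Gene counts summed to 23419198 reads in the shallowest library and 39319910 in the deepest. The shallowest was KO1_MK replicate 1, which also differed more from its replicates (mean chi-square per gene of 2.83 and 2.97, where counting error alone gives 1) than any other pair of replicates did (1.06 to 1.95). Nothing in the labels says that replicate libraries came from separate cultures, and the p-values below measure a spread that may be technical. GPS2 RNA was not lower in the libraries labelled KO, with 4.57 ± 0.278 CPM (SD, n = 3) in WT, 4.5 ± 0.0364 CPM (SD, n = 3) in KO1 and 6.04 ± 0.123 CPM (SD, n = 3) in KO2, so a whole-gene count does not check the knockout and the groups are named by their labels. AKT1 RNA was 231 ± 12 CPM (SD, n = 3) in myrAKT against 135 ± 1 CPM (SD, n = 3) in WT. All 7 markers of mesenchymal MDA-MB-231 cells were above 1 CPM in each group, and 9 markers of leukocytes, endothelium and fibroblasts summed to 3.16 to 24.3 CPM, with the highest sums in myrAKT, where PECAM1 was the only one above 1 CPM. The 8 luminal and hormone receptor markers summed to 335.8 to 467.2 CPM, lowest in myrAKT and highest in KO1. Of these GATA3, FOXA1, EPCAM, KRT8 and ERBB2 had means above 1 CPM in each group. ESR1 lay near that cut, at 1.12 ± 0.253 CPM (SD, n = 3) in myrAKT and 0.965 ± 0.289 CPM (SD, n = 3) in WT. Its difference between these groups was not significant (log2 fold change 0.22, adjusted p = 0.513, edgeR).

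Cells make purines by assembling the purine ring on an activated ribose phosphate until inosine monophosphate (IMP) is formed, which is then turned into AMP or GMP. Pyrimidines are made the other way, with the ring built first and joined to the ribose phosphate to give UMP, the precursor of CTP. Ribonucleotide reductase removes an oxygen from ribonucleotides to supply DNA synthesis, thymidylate synthase makes the thymine nucleotide, and salvage enzymes recycle free bases and nucleosides. In growing tumour cells AKT and mTORC1 signalling, MYC, ATF4 and the E2F factors are known to raise different parts of this supply.

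In GPS2 knockout cells 6 of 8 transcripts of the purine ring, CAD and UMPS of the pyrimidine ring, CTPS1, NME1, RRM1, RRM2, DTYMK and TK1 were more abundant, mostly by modest amounts, while CTPS2, RRM2B and TK2 were less abundant. In KO against WT, 18 of the 34 genes were higher and 3 were lower at an adjusted p of at most 0.001 (two-sided quasi-likelihood test of edgeR, adjusted by Benjamini-Hochberg over all genes tested; this threshold, with no minimum fold change, defines a call throughout). Over all genes tested 15.5% were called higher and 16.6% lower. The median log2 fold change of the 34 genes was 0.28 against -0.0029 over all genes, and the values ran from -0.59 for TK2 to 1.05 for RRM2. Only 4 of the higher genes (UMPS, CTPS1, NME1 and RRM2) and 1 of the lower genes (TK2) passed a fold change of 1.5. Taken by pool, 22 genes were higher and 4 lower in KO1 (20.5% and 21.3% of all genes), and 21 were higher and 3 lower in KO2 (20.8% and 22.2%). The lower genes were CTPS2, RRM2B and TK2 in each pool and CMPK1 in KO1; both pools were compared with the same WT libraries. Cell cycle genes moved in the same comparison. Of 40 S phase genes that are not members, 36 were higher in KO and 0 lower (edgeR), with a median log2 fold change of 0.53, and of 54 G2/M genes 25 were higher and 0 lower, with a median of 0.25. The part of cell cycle in the members' result was not tested, and in bulk RNA a change in the share of cells in a phase and a change in RNA per cell cannot be told apart.

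In the myrAKT line most members were not called, and the shares called were near or below those of all genes. Against WT, 3 members were higher (UMPS, TYMS and TK1) and 6 were lower (GART, ATIC, ADSS2, CTPS1, NME4 and RRM1), where 12.7% of all genes were called higher and 17.3% lower. The median log2 fold change of the members was -0.0021 against 0.016 over all genes. The split depended on scaling, with 5 higher and 4 lower when library totals were used and 5 higher and 5 lower with upper-quartile factors. The number of higher members fell to 1 when WT replicate 1, WT replicate 3, myrAKT replicate 1 or myrAKT replicate 2 was left out. The S phase genes were again higher, 24 of 40 with 0 lower, at a median log2 fold change of 0.30, and 19 of 54 G2/M genes were higher and 4 lower.

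After 4 h of MK2206, 3 of 8 transcripts of the purine ring (PFAS, PAICS and ATIC) and all 3 of the pyrimidine ring were lower. So were 3 of 4 of the thymidylate branch (DUT, DTYMK and MTHFD1). These calls come from a fit over both pools that does not model the pool, and more members were called with the pool as a factor. In treated against untreated KO cells, 13 members were lower and 1, RRM2B, was higher, where 8.75% of all genes were called lower and 12.8% higher. The median log2 fold change of the members was -0.19 against -0.0031 over all genes, and none of the changes reached a fold of 1.5. Within the pools, 10 members were lower and 1 higher in KO1 (8.26% and 10.9% of all genes), and 10 were lower and 1 higher in KO2 (8.78% and 13.1%). A total of 8 genes were lower in both (PFAS, PAICS, ATIC, ADSS2, CAD, UMPS, CTPS1 and MTHFD1). Leaving out KO1_MK replicate 1, the library that stood apart, gave 11 lower in the pooled comparison and 14 in KO1. With the pool as a factor in the fit, 22 members were lower. Added to the 13 were PRPS1, PRPS2, GART, ADSL, APRT, NME1, NME2, NME4 and TYMS. In KO2 the count was 4 without KO2 replicate 1 or without KO2_MK replicate 2, 6 without KO2 replicate 3 and 16 without KO2_MK replicate 1. No member differed between the pools in its response to MK2206 by edgeR's interaction test, where 0% of all genes were called higher and 0.0128% lower, and 3 members had an unadjusted p under 0.05; DESeq2 called 0 members as well. Among S phase genes 4 of 40 were higher and 12 lower with MK2206, with a median log2 fold change of -0.10, and among G2/M genes 2 of 54 were higher and 9 lower.

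**Figure D1:**
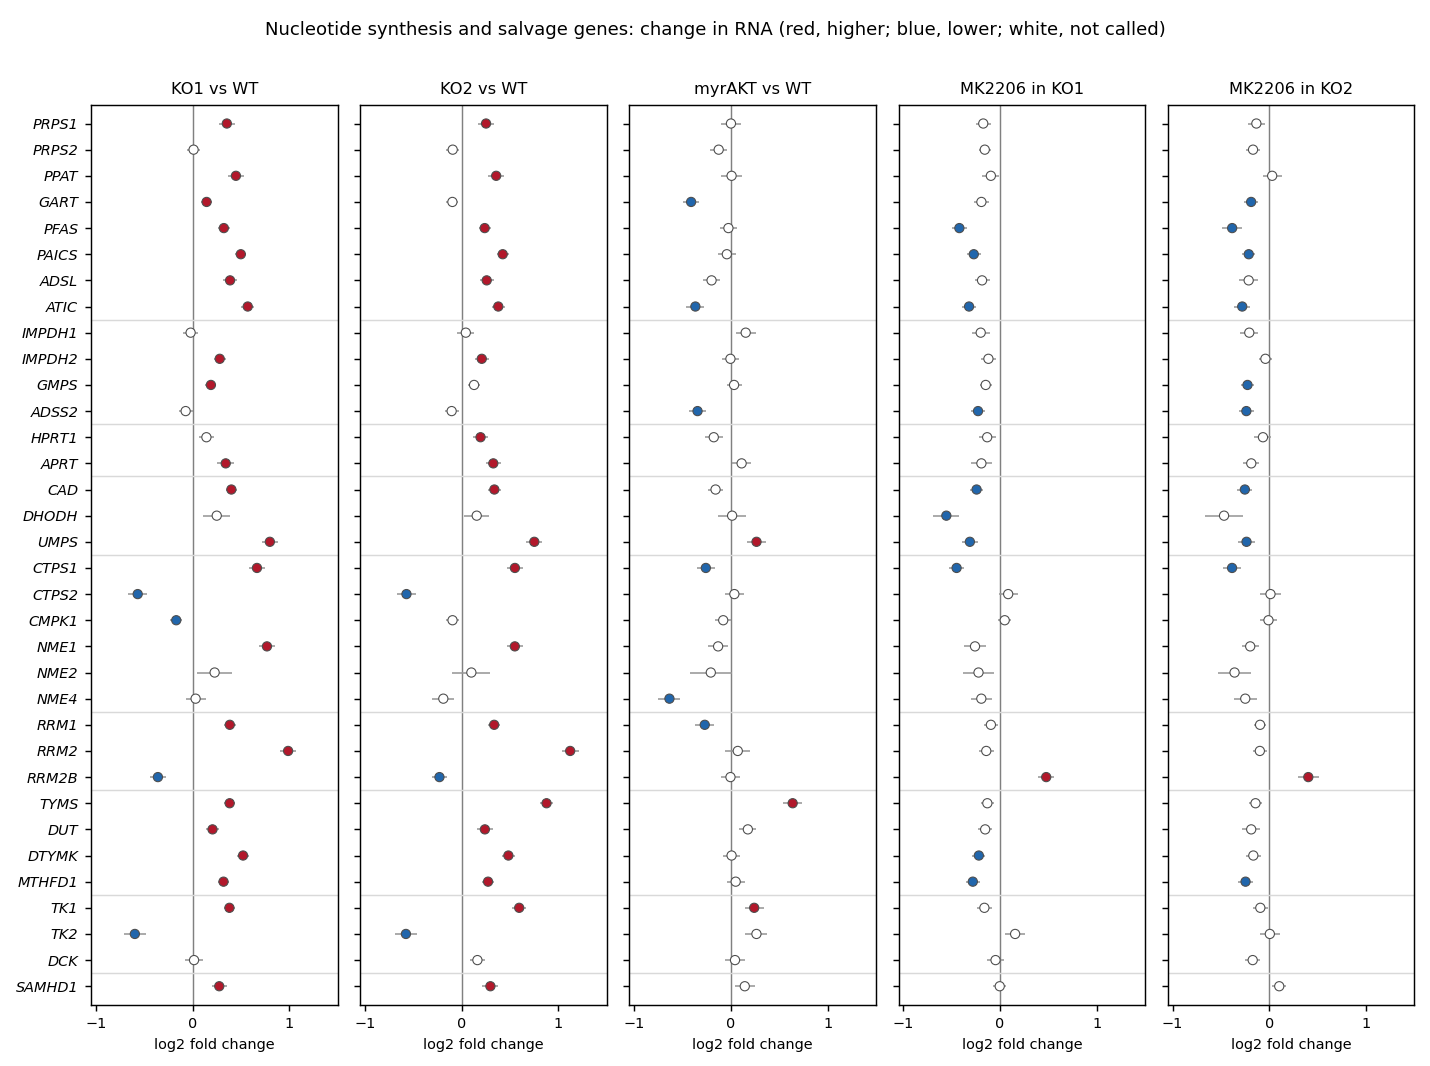
Log2 fold change of each of the 34 genes (rows, ordered by role) in 5 comparisons (panels), with bars of the 95% interval (normal approximation from the SE of the edgeR fit); red marks genes called higher, blue those called lower and white those not called. The knockout panels hold 22 and 21 red points, the myrAKT panel 3, and the MK2206 panels 10 blue points each with RRM2B as the single red one.

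KO against WT and MK2206 in KO cells share the untreated KO libraries, so a gene that happened to read high in them would also read lower with MK2206, and the calls of both are given side by side without counting their overlap. The log2 fold changes in KO and with MK2206 were 0.30 and -0.16 for PRPS1 and 0.32 and -0.20 for ADSL. Both were called in KO, a call that PRPS1 lost without WT replicate 2 or WT replicate 3 and ADSL without WT replicate 1 (adjusted p up to 0.00159 and 0.00155, edgeR). Neither was called with MK2206 in the fit over both pools, which does not model the pool. With the pool as a factor both were called lower, at log2 fold changes of -0.15 for PRPS1 and -0.20 for ADSL (adjusted p = 0.000194 and 6.39e-05, edgeR). RRM2B had -0.30 and 0.44, both called, and was the single member higher with MK2206.

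Promoters of the members were searched for short motifs of factors known to act on these genes. RefSeq promoters on GRCh38.p14 were found for 31 of the 34 members, and windows of 250 bases before to 50 after the start site were searched on both strands. The E-box CACGTG, which reads the same on both strands and is known to be bound by MYC and its relatives, was in 6 of the 31 (19.4%, against 8.37% of 18929 promoters of the same length). These were PPAT, ATIC, DHODH, NME1, MTHFD1 and DCK. An E2F motif, spelled TTTCCCGC, TTTGGCGC or TTTCGCGC, was in 4 (12.9% against 3.48%), namely PRPS2, GART, TYMS and DCK. The letters CCAAT were in 12 (38.7% against 36.2%), the FOXO motif TGTTTAC was in CMPK1 alone (3.23% against 2.8%), and the ATF4 motif TTGCATCA was in 0 (against 0.713%). These counts are small and describe letters in a window, not bound sites. Below, the 250 bases before the start are shown for members with large changes or differences between pools, with motif letters in capitals.

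The purine ring is built by PRPS1 and PRPS2, which make the activated ribose phosphate, PPAT, which commits it to purines, and GART, PFAS, PAICS, ADSL and ATIC, which complete it to IMP. Of these 8 genes 6 were higher in KO (PRPS1, PPAT, PFAS, PAICS, ADSL and ATIC) with log2 fold changes of 0.27 to 0.47, while PRPS2 (-0.047) and GART (0.024) were not called. With MK2206, 3 of the 8 were lower (PFAS, PAICS and ATIC) in the fit that does not model the pool, and in myrAKT 2 were lower (GART and ATIC). With the pool as a factor PRPS1, PRPS2, GART and ADSL were called lower with MK2206 too. The log2 fold change there was -0.16 for PRPS2 and -0.19 for GART (adjusted p = 6.23e-06 and 4.9e-06, edgeR). GART was also called lower in KO2 alone (log2 fold change -0.19, adjusted p = 0.000547, edgeR). PAICS RNA was 295, 292 and 291 CPM in the WT libraries, 419.5, 411 and 424 in KO1, 395, 389 and 398 in KO2 and 307, 274 and 274 in myrAKT. It was 321, 352 and 349 CPM in KO1_MK and 337, 340.4 and 329 in KO2_MK. Each KO library lay above each WT library, the treated libraries lay between them, and myrAKT overlapped WT. PAICS rose in KO (log2 fold change 0.46, SE 0.037, adjusted p = 1.44e-06) and fell with MK2206 (log2 fold change -0.24, SE 0.03, adjusted p = 1.63e-05). PAICS shares its start region with PPAT on chromosome 4, the 2 genes being read in opposite directions from starts 126 bases apart. PPAT rose as well (log2 fold change 0.40, SE 0.05, adjusted p = 3.66e-05), but it was 39.6 ± 1.37 CPM (SD, n = 6) in the treated pools and 41.1 ± 2.14 CPM (SD, n = 6) in the untreated ones, a log2 difference of -0.034 (adjusted p = 0.503, edgeR; 95% interval -0.11 to 0.042, a normal approximation as for all intervals here).

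ATIC, the bifunctional enzyme of the last steps to IMP, moved in all 3 comparisons. It was at 139.9, 144 and 142 CPM in WT, 211, 207 and 222 in KO1, 192, 179 and 186 in KO2 and 118, 109.6 and 104 in myrAKT. With MK2206 the libraries held 160.3, 172 and 172 CPM in KO1_MK and 159, 149 and 144 in KO2_MK. The KO libraries were all above WT and the myrAKT libraries all below it. ATIC rose in KO (log2 fold change 0.47, SE 0.064, adjusted p = 6.94e-05) and fell in myrAKT (log2 fold change -0.37, SE 0.047, adjusted p = 1.29e-05) and with MK2206 (log2 fold change -0.30, SE 0.057, adjusted p = 0.000559). The MK2206 call was lost when KO1 replicate 1, 2 or 3 or KO2_MK replicate 2 was left out, with an adjusted p of up to 0.00174 (edgeR). GART, which carries out 3 steps of the ring, was also lower in myrAKT (log2 fold change -0.41, SE 0.042, adjusted p = 1.37e-06). PFAS fell furthest of the purine genes with MK2206 (log2 fold change -0.40, SE 0.043, adjusted p = 4.35e-06), to 95.5 ± 6.86 CPM (SD, n = 6) against 105 ± 2.36 CPM (SD, n = 3) in WT. The ATIC promoter holds an E-box 46 bases before the start and another 29 bases after it, and is shown from RefSeq as a de novo enzyme that moved in all 3 comparisons, with the upstream copy in capitals (GRCh38.p14, chr2:215311809-215312058, plus strand).
ATIC: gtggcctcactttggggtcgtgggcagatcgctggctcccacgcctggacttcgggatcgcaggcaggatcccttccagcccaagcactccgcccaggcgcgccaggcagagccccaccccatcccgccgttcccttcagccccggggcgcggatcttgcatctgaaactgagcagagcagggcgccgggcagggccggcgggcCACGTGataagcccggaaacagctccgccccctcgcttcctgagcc

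From IMP, IMPDH1 and IMPDH2 with GMPS lead to GMP, and ADSS2 leads towards AMP. IMPDH2, the main form in dividing cells, had the highest level per transcript length of all members in WT, at 370.5 ± 18.9 TPM (transcripts per 1000000, from counts divided by transcript length). Its libraries held 276, 264 and 280.0 CPM in WT, 336, 334 and 339 in KO1 and 319, 304 and 328 in KO2. The values were 284, 276 and 261 CPM in myrAKT, 284, 316 and 313 in KO1_MK and 314, 300.3 and 298 in KO2_MK. KO lay above WT without overlap, and the rise (log2 fold change 0.24, SE 0.041, adjusted p = 0.000383) lost its call without WT replicate 1, WT replicate 2 or KO2 replicate 3, with an adjusted p of up to 0.00135 (edgeR). The treated libraries overlapped untreated KO, and MK2206 gave no call (log2 fold change -0.081). IMPDH1 was not called in KO (log2 fold change 0.0054) and was lower with MK2206 over both pools (log2 fold change -0.20, SE 0.041, adjusted p = 0.000995), though called in neither alone. That call was lost when any library but KO1 replicate 2 or KO2_MK replicate 1 was left out (adjusted p up to 0.00303, edgeR). GMPS was lower with MK2206 as well (log2 fold change -0.19, SE 0.037, adjusted p = 0.000843), a call lost without any single untreated KO library, KO2_MK replicate 1 or KO2_MK replicate 2 (adjusted p up to 0.00258, edgeR). It was called higher in KO1 but not in KO2 (log2 fold changes 0.19 and 0.13), and the difference between the pools did not pass (adjusted p = 0.0996, edgeR). ADSS2 was 82.3, 80.6 and 85.6 CPM in WT, 80.0, 77.6 and 82 in KO1, 78.2, 74.3 and 79.8 in KO2 and 67, 63.2 and 66.3 in myrAKT. It was 64.6, 68.8 and 67.7 CPM in KO1_MK and 64.9, 64 and 65.7 in KO2_MK. KO overlapped WT, while myrAKT and both treated pools lay below every untreated KO and WT library. ADSS2 fell in myrAKT (log2 fold change -0.35, SE 0.044, adjusted p = 1.38e-05) and with MK2206 (log2 fold change -0.23, SE 0.029, adjusted p = 1.59e-05).

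HPRT1 and APRT salvage free purine bases. APRT, which recycles adenine, was 50.2, 52 and 50.1 CPM in WT, 67.4, 61 and 67.2 in KO1, 64.5, 60.9 and 66.6 in KO2 and 57.8, 56.2 and 51.3 in myrAKT. It was 50.6, 57.7 and 59.7 CPM in KO1_MK and 57.4, 54.6 and 54.4 in KO2_MK. KO did not overlap WT and the rise was called (log2 fold change 0.33, SE 0.045, adjusted p = 7.2e-05), whereas myrAKT and the treated libraries spread from the WT level upwards. HPRT1, which recycles hypoxanthine and guanine, was called in KO2 alone, with log2 fold changes of 0.14 in KO1 and 0.19 in KO2. The call in KO2 was lost when any single library was left out (adjusted p up to 0.015, edgeR). It was also lost with DESeq2, under each other scaling and filter, and with the replicate number as a block. The difference between the pools did not pass (adjusted p = 0.37, edgeR, 95% interval of the difference -0.13 to 0.03).

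The pyrimidine ring is made by CAD, a protein that joins the first 3 activities, DHODH, an enzyme of the inner mitochondrial membrane, and UMPS, which finishes UMP. UMPS had the largest rise of the de novo enzymes. Its libraries held 30.7, 32.7 and 31.1 CPM in WT, 55.1, 54 and 57.4 in KO1, 54.3, 52.4 and 52.9 in KO2 and 37.7, 38 and 38.2 in myrAKT. With MK2206 they held 41.7, 45.1 and 44.9 CPM in KO1_MK and 44.6, 46.5 and 42.9 in KO2_MK. The groups formed a series without overlap, with WT lowest, then myrAKT, then treated KO and then untreated KO. UMPS rose in KO (log2 fold change 0.77, SE 0.042, adjusted p = 1.61e-07), fell with MK2206 (log2 fold change -0.27, SE 0.034, adjusted p = 1.56e-05) and was still above WT in treated cells (log2 fold change 0.48, SE 0.048, adjusted p = 5.21e-06). Its rise in myrAKT (log2 fold change 0.26, SE 0.05, adjusted p = 0.000423) was lost when any library but WT replicate 2 was left out, with an adjusted p of up to 0.00365 (edgeR). CAD rose in KO (log2 fold change 0.36, SE 0.037, adjusted p = 7.99e-06) and fell with MK2206 (log2 fold change -0.25, SE 0.033, adjusted p = 3.26e-05). DHODH, the least abundant member per length in WT, was 13.4, 11.7 and 12.2 CPM in WT, 15.7, 14.4 and 14.8 in KO1, 14, 13.9 and 13.7 in KO2 and 12.8, 13.1 and 12 in myrAKT. It was 9.91, 10.4 and 9.69 CPM in KO1_MK and 11.2, 10.6 and 7.97 in KO2_MK. Treated libraries all lay below the untreated ones, and the fall with MK2206 (log2 fold change -0.51, SE 0.071, adjusted p = 4.43e-05) was the largest among the 34 genes, while KO against WT was not called (log2 fold change 0.20, adjusted p = 0.0203, edgeR). All 3 genes of the ring were lower with MK2206.

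CTPS1 and CTPS2 both turn UTP into CTP, and they moved in opposite directions in the knockout cells; they are given in full although the naming rule did not select them, having been chosen after their values were seen. CTPS1 was 98.5, 86.6 and 92.8 CPM in WT, 149, 146 and 152 in KO1, 138, 135 and 136 in KO2 and 78.7, 77.8 and 76.6 in myrAKT. CTPS2 was 44.7, 41.5 and 46.4 CPM in WT, 29.7, 31.4 and 29.5 in KO1, 29.3, 31.1 and 29.1 in KO2 and 45.7, 44.9 and 45.8 in myrAKT. Neither gene's KO libraries overlapped WT. CTPS1 rose (log2 fold change 0.60, SE 0.053, adjusted p = 2.7e-06) and CTPS2 fell (log2 fold change -0.58, SE 0.045, adjusted p = 1.22e-06). In treated pools CTPS1 was 101, 113 and 107 CPM in KO1_MK and between 96.2 and 113 in KO2_MK, a fall (log2 fold change -0.42, SE 0.044, adjusted p = 3.54e-06). CTPS2 was 32.3, 31.8 and 30.4 CPM in KO1_MK and 31.5, 29.7 and 28 in KO2_MK, with a log2 difference of 0.049 (95% interval -0.031 to 0.13). CTPS1 was lower in myrAKT (log2 fold change -0.26, SE 0.047, adjusted p = 0.000349), a call lost without WT replicate 1, WT replicate 3, myrAKT replicate 1 or myrAKT replicate 2 (adjusted p up to 0.00286, edgeR) and under library totals or upper-quartile factors.

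The NME enzymes pass phosphate to nucleoside diphosphates, and CMPK1 phosphorylates UMP and CMP. NME1 was 55.1, 60.1 and 60.3 CPM in WT, 99.4, 99.7 and 104 in KO1, 84.2, 86.1 and 87.6 in KO2 and 57.5, 52.2 and 51.2 in myrAKT. It was 72.6, 90.9 and 85.1 CPM in KO1_MK, where replicate 1 was lowest, and 78.5, 74.1 and 69.6 in KO2_MK. KO1 lay above KO2 and both above WT, and NME1 rose in KO (log2 fold change 0.66, SE 0.073, adjusted p = 1.54e-05). Within each pool the treated libraries lay below the untreated ones, with log2 fold changes of -0.26 in KO1 and -0.20 in KO2, neither called (adjusted p = 0.00251 and 0.00204, edgeR). The fit over both pools, which does not model the pool, did not call it either (adjusted p = 0.0131, edgeR), and with the pool as a factor it was called lower (log2 fold change -0.23, adjusted p = 9.07e-05, edgeR). NME2 had 7.92 ± 1.02 CPM (SD, n = 3) in WT and was not called in any of the 11 comparisons. With the pool as a factor its fall with MK2206 was called (log2 fold change -0.29, adjusted p = 0.00032, edgeR). NME1 and NME2 share exon bases with the NME1-NME2 readthrough gene (18.7% of NME1 and 24.2% of NME2), which held under 1 CPM in each library. NME4, the mitochondrial form, was 37.3, 40.8 and 37.5 CPM in WT, 42.5, 37.5 and 39.6 in KO1, 32.7, 32 and 37.1 in KO2 and 24.7, 26.4 and 23.7 in myrAKT. It was 32, 34.9 and 35.8 CPM in KO1_MK and 28.8, 26.8 and 28.8 in KO2_MK. The myrAKT libraries lay below all others, and the fall (log2 fold change -0.64, SE 0.058, adjusted p = 4.3e-07) was the largest fall of a member there; DECR2, which shares 15.6% of the exon bases of NME4, fell too (log2 fold change -0.78, SE 0.14, adjusted p = 0.000229). CMPK1 was called lower in KO1 only (log2 fold change -0.17, against -0.095 in KO2), and the difference between the pools did not pass (adjusted p = 0.0673, edgeR; 95% interval of the difference -0.13 to -0.015). The call in KO1 was lost when any library but WT replicate 1 was left out (adjusted p up to 0.00848, edgeR). The NME1 promoter has CCAAT 203 bases before the start, in capitals, and an E-box 34 bases after it (GRCh38.p14, chr17:51153309-51153558, plus strand).
NME1: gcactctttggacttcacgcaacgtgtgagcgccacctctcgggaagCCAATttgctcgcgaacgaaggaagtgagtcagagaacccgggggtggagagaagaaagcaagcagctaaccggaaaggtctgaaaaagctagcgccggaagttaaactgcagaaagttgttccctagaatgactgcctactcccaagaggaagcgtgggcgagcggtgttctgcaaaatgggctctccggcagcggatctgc

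**Figure D2:**
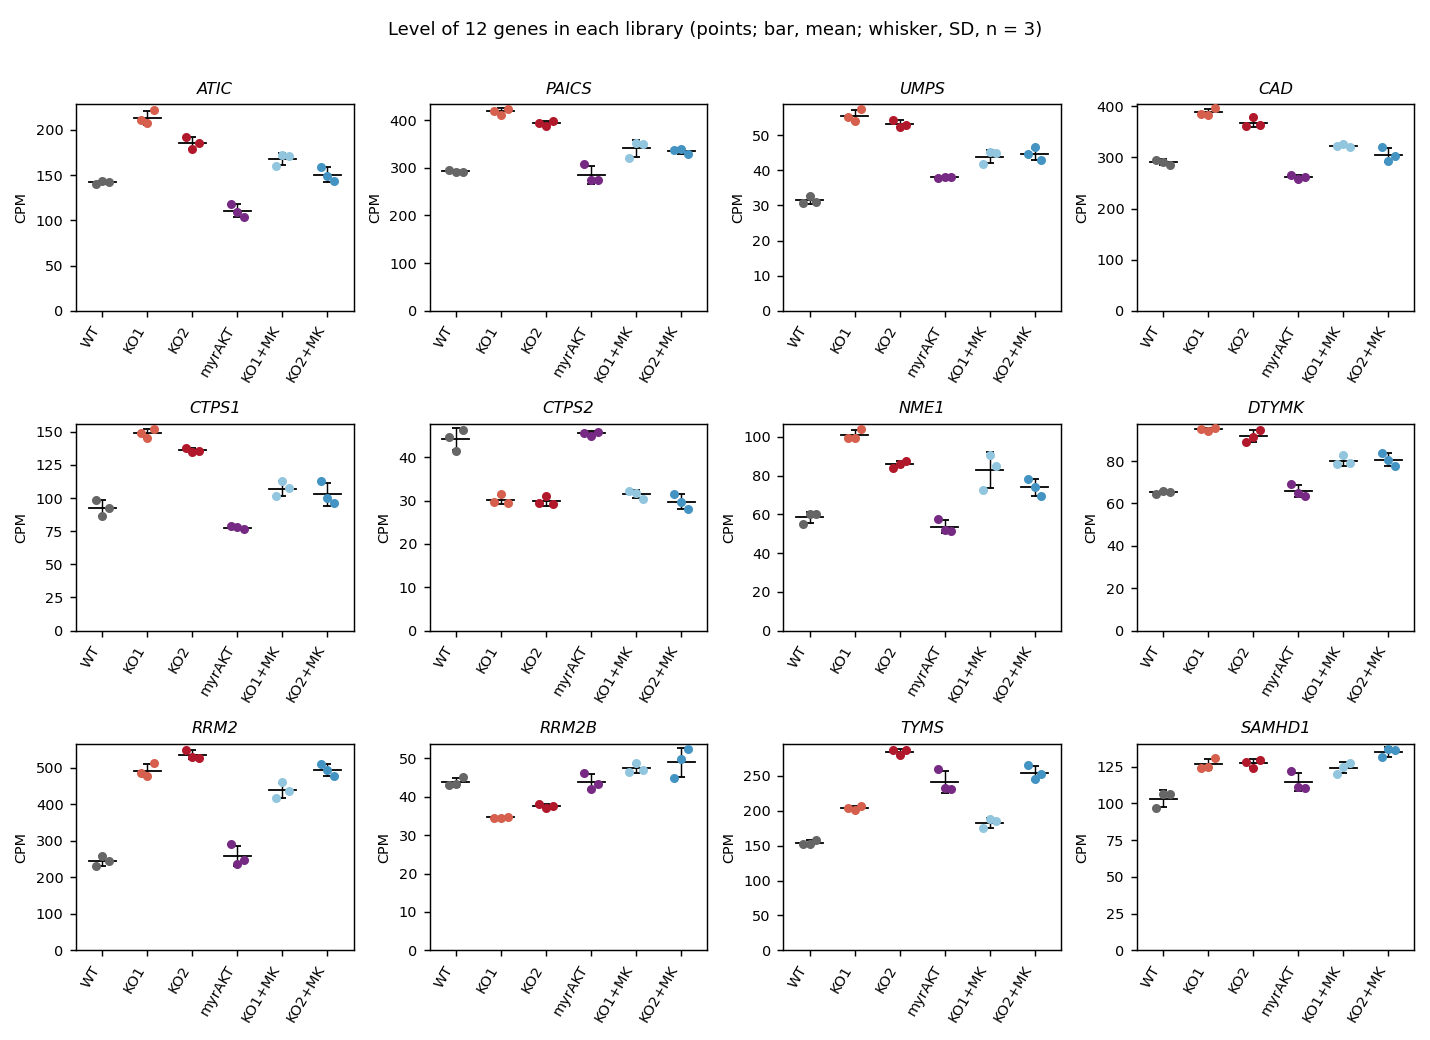
CPM of 12 genes (panels, axes from 0) in each library of the 6 groups; points are libraries, bars the mean and whiskers the SD of 3. In the RRM2 panel the untreated KO libraries lie at 478 to 549 CPM and the WT and myrAKT libraries at 231 to 290.4 CPM, whereas in the RRM2B panel the untreated KO libraries are the lowest.

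Ribonucleotide reductase is formed by the large subunit RRM1 with one of the small subunits RRM2, made in S phase, or RRM2B, a p53 target that also supplies resting cells and mitochondria. RRM2 had the largest rise of all 34 genes. Its libraries held 231, 259 and 245 CPM in WT, 486, 478 and 512 in KO1, 549, 531 and 526 in KO2 and 290.4, 237 and 247 in myrAKT. With MK2206 they held 418, 460.1 and 435 CPM in KO1_MK and 509.5, 494 and 478 in KO2_MK. Both KO pools, treated or not, lay far above WT and myrAKT, which overlapped each other. RRM2 rose in KO (log2 fold change 1.05, SE 0.053, adjusted p = 1.16e-07) and was still above WT in treated cells (log2 fold change 0.92, SE 0.067, adjusted p = 5.9e-07). Within each pool its treated libraries lay below the untreated ones. The fit over both pools, which does not model the pool, did not call it (log2 fold change -0.12, adjusted p = 0.07, edgeR). With the pool as a factor it also missed the threshold (log2 fold change -0.12, adjusted p = 0.00115, edgeR). RRM2B was 43, 43.2 and 45.2 CPM in WT, 34.5, 34.6 and 34.8 in KO1, 38, 37.1 and 37.5 in KO2 and 46.2, 42.1 and 43.3 in myrAKT. It was 46.5, 48.7 and 46.9 CPM in KO1_MK and 44.9, 49.8 and 52.4 in KO2_MK. The untreated KO libraries were lower than all others. The fall in KO (log2 fold change -0.30, SE 0.045, adjusted p = 0.00014) lost its call without any single WT library (adjusted p up to 0.00329, edgeR), and the rise with MK2206 (log2 fold change 0.44, SE 0.045, adjusted p = 2.65e-06) kept it in all 12 fits that left out a library. RRM1 rose in KO (log2 fold change 0.35, SE 0.034, adjusted p = 4.83e-06) and fell in myrAKT (log2 fold change -0.27, SE 0.05, adjusted p = 0.000371). The myrAKT call was lost without WT replicate 2, WT replicate 3, myrAKT replicate 2 or myrAKT replicate 3 (adjusted p up to 0.00389, edgeR) and under library totals. The RRM2 promoter holds CCAAT 3 times, 123, 93 and 66 bases before the start, and is shown for the largest change of the list (GRCh38.p14, chr2:10122489-10122738, plus strand).
RRM2: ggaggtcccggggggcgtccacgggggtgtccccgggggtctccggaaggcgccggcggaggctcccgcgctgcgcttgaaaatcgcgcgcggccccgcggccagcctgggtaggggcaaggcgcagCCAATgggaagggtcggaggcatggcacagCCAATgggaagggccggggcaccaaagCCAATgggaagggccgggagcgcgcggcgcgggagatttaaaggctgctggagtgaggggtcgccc

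**Figure D3:**
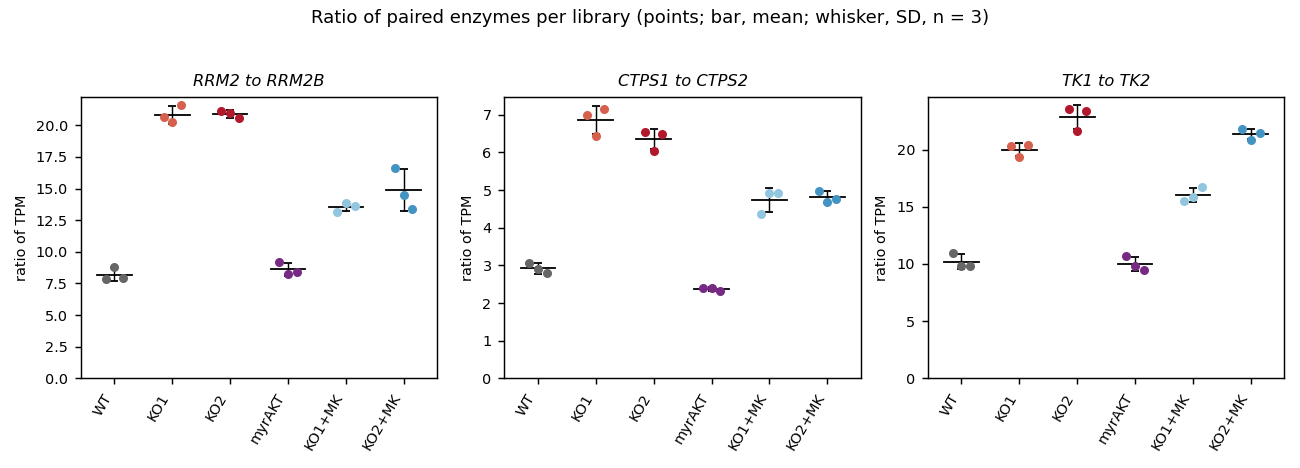
Ratio of the TPM of paired enzymes in each library (axes from 0); points are libraries, bars the mean and whiskers the SD of 3. The RRM2 to RRM2B ratio is 7.86 to 8.77 in WT, 20.3 to 21.6 in KO1 and KO2 and 13.2 to 16.7 with MK2206.

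Because the paired enzymes moved apart, their ratios per transcript length were computed for each library, as a description without a test. The ratio of RRM2 to RRM2B was 8.19 ± 0.503 (SD, n = 3) in WT, 20.8 ± 0.681 in KO1, 20.9 ± 0.303 in KO2 and 8.62 ± 0.509 in myrAKT. With MK2206 it was 13.5 ± 0.338 in KO1_MK and 14.9 ± 1.66 in KO2_MK. The untreated pools were nearly alike and the treated pools lay between them and WT. The ratio of CTPS1 to CTPS2 was 2.92 ± 0.142 in WT, 6.61 ± 0.404 in KO (n = 6), 2.38 ± 0.046 in myrAKT and 4.78 ± 0.227 in treated KO cells (n = 6). The ratio of TK1, the S phase enzyme, to TK2, the mitochondrial one, was 10.2 ± 0.638 in WT, 20 ± 0.592 in KO1, 22.9 ± 1.05 in KO2 and 9.99 ± 0.632 in myrAKT. With MK2206 it was 16 ± 0.604 in KO1_MK and 21.3 ± 0.455 in KO2_MK (n = 3 each). The myrAKT libraries overlapped WT in the first and the last of these pairs and lay below WT for CTPS1 to CTPS2. For the other pairs the means in WT and KO were 5.88 and 6.93 for IMPDH2 to IMPDH1, 1.58 and 1.25 for PRPS2 to PRPS1, and 5.77 and 8.08 for NME1 to NME2.

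The thymidylate branch makes the thymine nucleotide of DNA: TYMS methylates dUMP, DUT supplies dUMP and removes dUTP, DTYMK adds the next phosphate and MTHFD1 interconverts the folates that carry the methyl group. TYMS differed most between the pools. It was 153, 152 and 158 CPM in WT, 204, 201 and 206 in KO1, 287, 279.6 and 286 in KO2 and 259, 233 and 231 in myrAKT. With MK2206 it was 175, 188 and 186 CPM in KO1_MK and 265, 245 and 253 in KO2_MK. WT was lowest, KO1 next, and KO2 highest, with myrAKT between the pools and no overlap among these groups. TYMS rose in KO1 (log2 fold change 0.38, SE 0.03, adjusted p = 4.79e-08), in KO2 (log2 fold change 0.88, SE 0.033, adjusted p = 2.56e-10) and in myrAKT (log2 fold change 0.64, SE 0.049, adjusted p = 7.36e-08). The treated libraries lay below those of their own untreated pool, but the pooled MK2206 comparison, which does not model the pool, was not called (log2 fold change -0.14). With the pool as a factor TYMS was called lower (log2 fold change -0.14, adjusted p = 7.71e-05, edgeR). Over both pools together the rise of 0.64 did not pass (adjusted p = 0.00124, edgeR), the spread between the pools entering its error. ENOSF1, read from the other strand, shares 39.9% of the exon bases of TYMS and held 40 to 67.4 CPM; the strand setting of the counting is not given in the sources used here, so reads of the 2 genes may be mixed. DTYMK was 64.5, 66 and 65.3 CPM in WT, 94.9, 94.3 and 95.7 in KO1, 89, 91.4 and 94.5 in KO2 and 69.1, 65.1 and 63.5 in myrAKT. It was 78.6, 82.9 and 79.1 CPM in KO1_MK and 83.9, 80.5 and 77.6 in KO2_MK. KO was above WT and treated KO between them without overlap, a rise in KO (log2 fold change 0.50, SE 0.035, adjusted p = 6.27e-07) and a fall with MK2206 (log2 fold change -0.19, SE 0.028, adjusted p = 7.38e-05). MTHFD1 rose in KO (log2 fold change 0.29, SE 0.034, adjusted p = 2.01e-05) and fell with MK2206 (log2 fold change -0.26, SE 0.032, adjusted p = 1.17e-05), to 333 ± 15.4 CPM (SD, n = 6) against 328 ± 1.05 CPM (SD, n = 3) in WT. DUT was called higher in each pool (log2 fold changes 0.21 and 0.24, the latter lost without WT replicate 2 or 3 or KO2 replicate 1 or 3) but missed the threshold over both (adjusted p = 0.00101, edgeR). Its fall with MK2206 was called over both pools (log2 fold change -0.17, SE 0.033, adjusted p = 0.000732) but in neither pool alone (adjusted p = 0.00442 in KO1 and 0.00432 in KO2, edgeR), and was lost when any library but KO2 replicate 2, KO1_MK replicate 2 or KO2_MK replicate 1 was left out (adjusted p up to 0.00232, edgeR). The TYMS promoter, shown for the largest difference between pools, has an E2F motif on the reverse strand 39 bases before the start, and the DTYMK promoter has CCAAT 92 and 24 bases before it; both sets of letters are in capitals (GRCh38.p14, chr18:657403-657652, plus strand, and chr2:241686816-241687065, minus strand).
TYMS: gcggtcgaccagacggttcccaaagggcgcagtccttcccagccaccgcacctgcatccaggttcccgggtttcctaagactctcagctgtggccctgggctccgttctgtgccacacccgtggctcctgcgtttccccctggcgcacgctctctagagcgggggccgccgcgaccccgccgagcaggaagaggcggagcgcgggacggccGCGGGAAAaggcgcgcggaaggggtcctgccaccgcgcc
DTYMK: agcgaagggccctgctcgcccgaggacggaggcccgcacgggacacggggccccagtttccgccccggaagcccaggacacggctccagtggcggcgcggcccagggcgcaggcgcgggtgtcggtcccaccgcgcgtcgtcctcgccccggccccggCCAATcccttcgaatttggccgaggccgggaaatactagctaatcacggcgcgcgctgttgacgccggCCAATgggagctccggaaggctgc

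TK1, TK2 and DCK phosphorylate deoxynucleosides for reuse. TK1 was 107, 110.0 and 110.3 CPM in WT, 144, 144 and 144 in KO1, 168, 156 and 173 in KO2 and 140.3, 127 and 122 in myrAKT. It was 116, 132 and 131 CPM in KO1_MK and 156, 154 and 149 in KO2_MK. All modified lines lay above WT, with KO2 highest, and TK1 rose in KO (log2 fold change 0.48, SE 0.064, adjusted p = 5.29e-05). The smaller rise in myrAKT (log2 fold change 0.24, SE 0.05, adjusted p = 0.000932) was lost when any library but myrAKT replicate 3 was left out (adjusted p up to 0.00545, edgeR). TK2 was 33, 37.9 and 37.8 CPM in WT, 23.9, 25.2 and 23.8 in KO1, 24.1, 24.3 and 24.9 in KO2 and 44.2, 43.5 and 43.3 in myrAKT. It was 25.3, 28 and 26.4 CPM in KO1_MK and 24.3, 24.9 and 23.4 in KO2_MK. All KO libraries, treated or not, lay below WT, and myrAKT lay above it. TK2 fell in KO (log2 fold change -0.59, SE 0.049, adjusted p = 1.73e-06), the largest fall of a member, and stayed below WT with MK2206 (log2 fold change -0.52, SE 0.065, adjusted p = 2.98e-05). DCK was not called, with log2 fold changes of 0.084 in KO, 0.042 in myrAKT and -0.11 with MK2206. The TK1 promoter has CCAAT letters 77 and 46 bases before the start, on the reverse strand, so that the capitals read ATTGG (GRCh38.p14, chr17:78187053-78187302, minus strand).
TK1: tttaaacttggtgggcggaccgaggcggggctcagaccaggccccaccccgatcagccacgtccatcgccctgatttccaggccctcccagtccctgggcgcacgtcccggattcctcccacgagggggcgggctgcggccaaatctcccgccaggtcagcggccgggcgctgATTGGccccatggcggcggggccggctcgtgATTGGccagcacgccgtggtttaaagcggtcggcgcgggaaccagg

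SAMHD1, which breaks down deoxynucleotides and so works against the reductase, also rose. It was 96.8, 106 and 106 CPM in WT, 124, 125 and 131 in KO1, 128, 124 and 129.8 in KO2 and 122, 112 and 110.4 in myrAKT. With MK2206 it was 120.2, 124 and 128 CPM in KO1_MK and 131, 137 and 137 in KO2_MK. All KO libraries, treated or not, lay above all WT libraries, and myrAKT replicate 1 reached the range of KO1_MK. SAMHD1 rose in KO (log2 fold change 0.28, SE 0.039, adjusted p = 8.39e-05), and its log2 difference with MK2206 was 0.051 (95% interval -0.018 to 0.12).

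The knockout pools were compared with each other directly. In KO1 against KO2, 3 members were higher and 2 lower, where 7.06% of all genes were called higher and 5.54% lower. GART (log2 fold change 0.24, SE 0.03, adjusted p = 1.05e-05), ATIC (log2 fold change 0.19, SE 0.033, adjusted p = 0.000252) and NME1 (log2 fold change 0.22, SE 0.032, adjusted p = 4.93e-05) were higher in KO1. TYMS (log2 fold change -0.49, SE 0.028, adjusted p = 1.31e-09) and TK1 (log2 fold change -0.21, SE 0.034, adjusted p = 0.000119) were lower in KO1. GART was 194, 193 and 191 CPM in WT, 211, 220.0 and 217 in KO1 and 179, 178 and 186 in KO2, so that the KO1 libraries lay above WT, with a call, and those of KO2 below it, without one. The call of GART in KO1 was lost when any library but WT replicate 1 was left out (adjusted p up to 0.00367, edgeR), and that of ATIC between the pools without KO1 replicate 1 or KO1 replicate 3 (adjusted p up to 0.00254, edgeR). MYC RNA had the order of GART, at 327 ± 7.6 CPM (SD, n = 3) in KO1, 281 ± 13.4 CPM (SD, n = 3) in WT and 228 ± 13.4 CPM (SD, n = 3) in KO2. ATIC, NME1, TYMS and TK1 did not have this order, being above WT in both pools, and a part of MYC was not tested. The number of lower members was 1 without KO1 replicate 1 or without KO2 replicate 1.

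Knockout and myrAKT cells were also compared directly. In KO against myrAKT, 19 members were higher and 3 lower (19.1% and 16.7% of all genes), with a median log2 fold change of 0.27 against 0.0024 over all genes. This comparison shares the KO libraries with KO against WT. RRM2 (log2 fold change 0.98, SE 0.069, adjusted p = 3.65e-07), CTPS1 (log2 fold change 0.86, SE 0.044, adjusted p = 3.67e-08) and ATIC (log2 fold change 0.84, SE 0.068, adjusted p = 1.1e-06) had the largest differences upwards. TK2 (log2 fold change -0.86, SE 0.038, adjusted p = 1.38e-08), CTPS2 and RRM2B were lower. TYMS did not pass (log2 difference 0.0037, 95% interval -0.26 to 0.26), the KO pools lying on either side of myrAKT.

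Treated knockout cells were set against untreated parental cells, a comparison in which genotype and drug change together. In KO with MK2206 against WT, 8 members were higher and 3 lower (16% and 16.1% of all genes), with a median log2 fold change of 0.11 against 0.0042 over all genes. The 8 were PPAT, PAICS, UMPS, NME1, RRM1, RRM2, DTYMK and SAMHD1, and the count was 4 without any single WT library. With upper-quartile factors 6 were higher and 5 lower. The 3 lower genes were ADSS2 (log2 fold change -0.34, SE 0.039, adjusted p = 1.58e-05), CTPS2 and TK2. Among members not called, the log2 difference from WT was -0.14 for PFAS, 0.016 for MTHFD1 and 0.35 for TK1.

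Genes around these enzymes were counted in the same way and are read against the shares of all genes given above. Of 20 genes of serine and folate supply 3 were higher and 4 lower in KO, and 3 higher and 4 lower in myrAKT. This list also holds ASNS, asparagine synthetase, whose product is asparagine rather than serine or a folate. ASNS fell in KO (log2 fold change -1.44, SE 0.2, adjusted p = 7.91e-05) and in myrAKT (log2 fold change -0.60, SE 0.084, adjusted p = 3.48e-05). ALDH1L1, a folate enzyme at low level, fell in both as well (log2 fold changes -0.93 and -1.74). SLC25A32, the mitochondrial folate carrier, fell with MK2206 (log2 fold change -0.25, SE 0.048, adjusted p = 0.000651). Of 18 tested kinases and salvage enzymes outside the list, 5 were higher and 2 lower in KO, with UCK1, a uridine and cytidine kinase, higher (log2 fold change 0.58, SE 0.056, adjusted p = 5.04e-06) and AK3, a mitochondrial kinase, lower (log2 fold change -0.44, SE 0.049, adjusted p = 1.63e-05). In myrAKT 2 genes of this list were higher and 5 lower, among them the adenylate kinases AK4 (log2 fold change 0.70, SE 0.062, adjusted p = 3.73e-07) and AK6 (log2 fold change -0.62, SE 0.072, adjusted p = 4.79e-06). With MK2206, 1 was higher and 4 were lower, with the largest falls in NME6 (log2 fold change -0.35, SE 0.041, adjusted p = 8.13e-06) and UCK2, another kinase of uridine and cytidine (log2 fold change -0.32, SE 0.043, adjusted p = 3.38e-05). Of 21 tested genes of nucleotide breakdown 6 were higher and 4 lower in KO, 3 higher and 4 lower in myrAKT, and 1 higher and 3 lower with MK2206. ADA, adenosine deaminase, fell in KO (log2 fold change -0.86, SE 0.1, adjusted p = 2.23e-05) and in myrAKT (log2 fold change -0.93, SE 0.094, adjusted p = 1.23e-06), and XDH, which makes uric acid, rose in myrAKT (log2 fold change 2.11, SE 0.16, adjusted p = 5.93e-08) from a low level. NT5M, a mitochondrial nucleotidase, fell in KO (log2 fold change -0.81, SE 0.13, adjusted p = 0.00023). With MK2206 DCTPP1, a hydrolase of dCTP, fell (log2 fold change -0.44, SE 0.063, adjusted p = 5.32e-05) and ENTPD1, an ectonucleotidase, rose (log2 fold change 0.40, SE 0.073, adjusted p = 0.00051). Of 4 tested nucleoside transporters 1 rose and 1 fell in KO, SLC29A3 (log2 fold change 0.36, SE 0.064, adjusted p = 0.000449) and SLC29A4 (log2 fold change -0.98, SE 0.14, adjusted p = 8.86e-05). In myrAKT 1 fell and 0 rose, and 2 fell with MK2206, SLC29A1 (log2 fold change -0.21, SE 0.042, adjusted p = 0.000714) and SLC29A2 (log2 fold change -0.52, SE 0.091, adjusted p = 0.000328), the latter also lower in myrAKT (log2 fold change -0.88, SE 0.065, adjusted p = 5.12e-08).

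**Figure D4:**
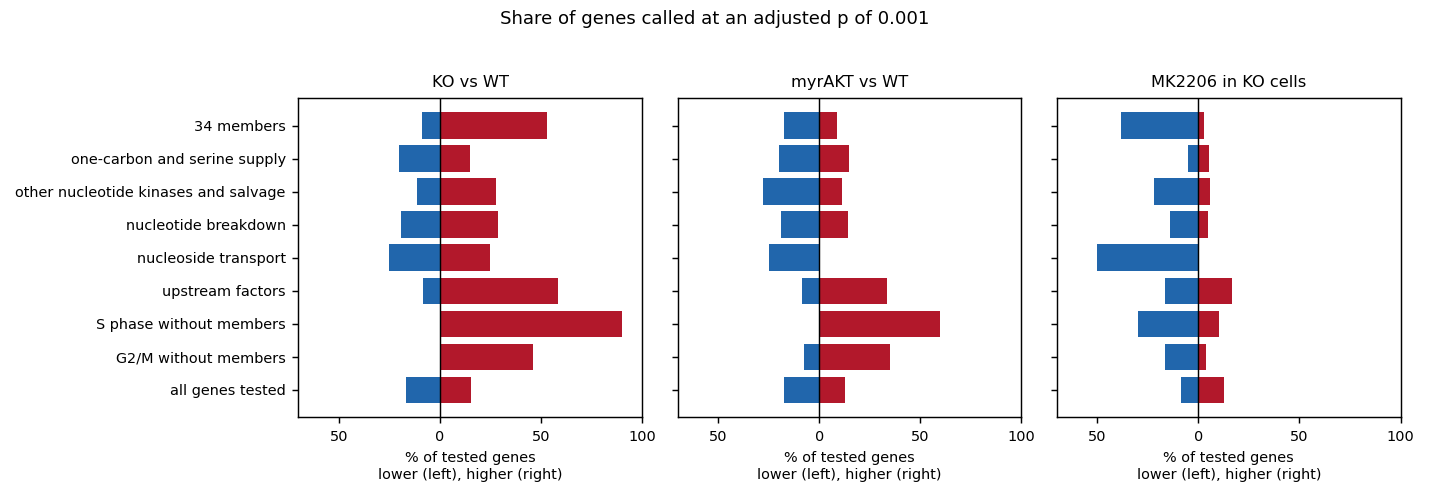
Percent of tested genes called higher (red, to the right) and lower (blue, to the left) in 3 comparisons (panels) for the 34 members, for lists of neighbouring pathways, upstream factors and cell cycle genes, and for all genes tested. The members' bars reach 52.9% higher in KO and 38.2% lower with MK2206, against 15.5% and 8.75% of all genes.

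Transcription factors known to act on these enzymes were measured alongside. Of 12 tested factors 7 were higher and 1 lower in KO, 4 higher and 1 lower in myrAKT, and 2 higher and 2 lower with MK2206. E2F2, an activating cell cycle factor, rose both in KO (log2 fold change 0.83, SE 0.083, adjusted p = 6.68e-06) and in myrAKT (log2 fold change 0.91, SE 0.085, adjusted p = 5.64e-07), and E2F8, a repressing relative, rose in KO (log2 fold change 0.56, SE 0.055, adjusted p = 6.26e-06). MYC fell in myrAKT (log2 fold change -1.09, SE 0.06, adjusted p = 2.8e-09) and with MK2206 (log2 fold change -0.62, SE 0.12, adjusted p = 0.000742), and was not called in KO (log2 fold change -0.037), where it was higher than WT in KO1 and lower in KO2. ATF4 rose with MK2206 (log2 fold change 0.45, SE 0.068, adjusted p = 8.83e-05). The part of these factors in the members' changes was not tested.

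Per transcript length the members spanned a wide range in WT. IMPDH2 was highest at 370.5 ± 18.9 TPM (SD, n = 3), followed by MTHFD1 at 233 ± 5.08, TYMS at 214 ± 8.53 and TK1 at 171 ± 4.32. TK2 at 16.8 ± 1.26, UMPS at 10.6 ± 0.198 and DHODH at 5.96 ± 0.481 TPM were lowest. In this order 13 of the 33 neighbouring pairs had overlapping WT libraries, so their places cannot be told apart beyond the spread. GENCODE 44 names 10 pseudogenes after IMPDH1, 8 after DUT and 7 after PAICS, and how reads shared with such copies were counted is not given in the sources used here.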

How the data were processed

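Total RNA depleted of ribosomal RNA was sequenced in 18 libraries. Per the study's methods and the submitters' processing notes, reads were trimmed with Trim Galore, aligned to hg38 with HISAT2 and counted per gene with featureCounts; versions and the strand setting are not given in the sources used here. The authors deposited raw counts per Ensembl gene. From these, genes reaching 1 CPM in 3 or more libraries were tested in edgeR 4.0.16 (R 4.3.3) with TMM factors, the quasi-likelihood test and Benjamini-Hochberg adjustment, fitting only the groups compared; calls were made at an adjusted p of at most 0.001. The methods name DESeq2, run here as an alternative (version 1.42.0). CPM values used TMM-normalised totals, and TPM used canonical transcript lengths of GENCODE 44. The standard error was derived from the F statistic. Replicates were numbered by the labels. The steps were tested on simulated data: of 67 genes changed 1.5-fold, 50 were called for KO against WT, and 0 unchanged genes of 15587. The members, gene lists and motifs were chosen with earlier results of these data known. Values in every library are given for the 2 members of each role (1 in roles of 1 or 2 genes) with the largest called change in KO or myrAKT against WT or with MK2206. Of each neighbouring list, the 2 largest called changes per comparison with a group mean of at least 100 counts were eligible to be named; 1 such result is not reported here. Cell cycle lists came from Seurat 5.3.0 and promoters from RefSeq.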

Additional observations from a re-analysis of the deposited data

Results flagged for a closer look

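Of the 34 genes, 5 differed between the 2 untreated knockout pools by the direct test (edgeR's quasi-likelihood test with Benjamini-Hochberg adjustment). The count, 3 higher and 2 lower in KO1, is close to the share of all genes tested, of which 7.06% were called higher and 5.54% lower. The log2 difference of KO1 from KO2 was 0.24 for GART, 0.19 for ATIC and 0.22 for NME1, which were higher in KO1, and -0.49 for TYMS and -0.21 for TK1, which were lower in KO1. ATIC, NME1, TYMS and TK1 were above WT in both pools, whereas GART was called above WT in KO1 and was not called in KO2, where its log2 fold change was -0.10. Pools made with a different sgRNA set, separate transductions and separate culture cannot be told apart here.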

How the results depend on the processing

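None of 29 called values of the members given in full changed direction under an alternative. Among all 34 members, up to 4 in a comparison changed sign under another scaling. The calls of the 29 values were the same in all 29 with DESeq2 and with all 18 libraries in 1 fit, and in 27 or 28 with the other scalings and filters. A minimum fold change of 1.5 removed most calls, with equal counts at an adjusted p of 0.001 and 0.05 unless given apart. It left 4 (5 at 0.05) higher and 1 lower in KO, 4 and 1 in KO1, 4 and 0 in KO2, 1 and 1 in myrAKT, and 5 higher in KO against myrAKT. It left 0 in either direction with MK2206 (pooled, KO1 and KO2) and for KO1 against KO2, and 1 higher and 0 lower in treated KO against WT. Higher members in myrAKT numbered 5 with library totals, 5 with upper-quartile factors and 1 with no filter. Lower members with MK2206 numbered 22 with all 18 libraries in 1 fit and 22 with pool as a factor, 21 in KO1 with no filter and 21 in KO2 with upper-quartile factors. For KO1 against KO2, 6 were higher with no filter, and 1 higher and 1 lower with 18 libraries in 1 fit. For treated KO against WT, 5 were higher with no filter, and lower members numbered 5 with DESeq2, 5 with upper-quartile factors, 6 with no filter and 7 with 18 libraries in 1 fit. The cause of these shifts was not tested.

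Leaving out 1 library at a time gave 16 to 20 higher and 2 to 3 lower in KO, 21 to 23 and 3 to 4 in KO1, 17 to 20 and 2 to 4 in KO2, and 1 to 2 and 4 to 6 in myrAKT. It gave 9 to 12 lower with MK2206, 8 to 14 in KO1 and 4 to 16 in KO2, with 1 higher in each. It gave 2 to 4 higher and 1 to 2 lower for KO1 against KO2, 14 to 19 and 2 to 3 for KO against myrAKT, and 4 to 9 and 3 for treated KO against WT. Same-numbered replicates did not deviate together (r of -0.23 to 0.19), so they share a number only. With the replicate number as a block, 15 members were higher and 3 lower in KO, 1 and 6 in myrAKT, 1 and 9 with MK2206, and 5 and 3 in treated KO against WT, and 4 of the 29 named calls were lost. Depth was lowest for NME2, with 173 reads in its lowest library.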
